A study of Mus musculus with 20 samples.

Results

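The Wnt ligand genes examined were Wnt2, Wnt2b, Wnt4, Wnt5a, Wnt5b, Wnt6, Wnt9a, Wnt10a, Wnt10b and Wnt11, 10 of the 43280 genes in the count tables and 10 of the 19 Wnt ligand symbols there. They were taken by symbol in all 12 RNA-seq libraries, and by position in 4 lists of accessible chromatin. Embryonic cells were GFP+ mesenchyme sorted from the stomach or the intestine of embryos at E13.5. The labels name their strain as C57BL/6, whereas the study describes mixed backgrounds, with 129 and CD-1 among the parents of the Eed fl and Rosa26mTmG lines. Controls were Bapx1-cre;Rosa26mTmG and Eed KO embryos were Eed fl/fl;Bapx1-cre;Rosa26mTmG, so that all 4 embryonic groups carried the Cre driver and the reporter, and floxed Eed marked the KO. Bapx1 (Nkx3-2) is a homeobox gene of the gut mesenchyme, and Eed encodes a core subunit of Polycomb Repressive Complex 2 (PRC2), which methylates histone H3 at lysine 27. Adult cells were GFP+ stroma of the small intestine after the villi had been scraped away, from mice of about 10 weeks that carried the tamoxifen-inducible Pdgfrβ Cre-ERT2 driver and Rosa26mTmG, with Eed fl/fl (labelled Eed KO) or without it (control). For mice with this driver the study's methods describe daily tamoxifen injections that ended shortly before dissection, without restating the schedule for the sorted cells. Each RNA-seq group had 2 libraries. The labels of the adult libraries name no strain, and those of no library say how many animals it held.

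Wnt proteins are secreted, lipid-modified glycoproteins. The acyltransferase Porcn adds the lipid, the carrier Wls takes the ligand to the cell surface, and Frizzled receptors bind it there. With the coreceptors Lrp5 and Lrp6 the signal stabilises β-catenin (the canonical branch), and with Ror or Ryk receptors it acts on cell polarity and movement (the noncanonical branch). In the gut, mesenchymal Wnt ligands signal to the overlying epithelium and take part in elongation of the tube, regional fate and upkeep of the crypt stem cells. Wnt2 and Wnt2b act mainly through β-catenin, Wnt5a, Wnt5b and Wnt11 mainly without it, and Wnt4 through either branch.

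The genes lie on 8 mouse chromosomes (GRCm38, GENCODE vM4). Wnt6 (chr1:74771892-74785322) and Wnt10a (chr1:74791516-74804179) are neighbours on the plus strand with 6193 bp between them. Wnt10b (chr15:98771753-98778150, minus strand) lies 11706 bp from Wnt1, and Wnt9a (chr11:59306928-59333552, plus strand) 16175 bp from Wnt3a. Wnt2 (chr6:17988940-18030585) and Wnt5b (chr6:119432531-119544347) share chromosome 6, both on the minus strand. Wnt2b is at chr3:104944805-104961709 (minus), Wnt4 at chr4:137277489-137299726 (plus), Wnt11 at chr7:98835112-98855195 (plus) and Wnt5a at chr14:28504750-28527447 (plus).

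Below are the promoters of the 4 members that rose with Eed loss in an embryonic organ, as the 250 bases before the RefSeq transcription start (GRCm38.p6), 5′ to 3′ on the strand of the gene. Capitals mark CG dinucleotides, since promoters rich in CG are the ones at which PRC2 is known to act. The Wnt2 stretch is chr6:18030446-18030695 (minus), that of Wnt6 chr1:74771642-74771891 (plus), that of Wnt11 chr7:98834862-98835111 (plus) and that of Wnt10b chr15:98778151-98778400 (minus).
Wnt2: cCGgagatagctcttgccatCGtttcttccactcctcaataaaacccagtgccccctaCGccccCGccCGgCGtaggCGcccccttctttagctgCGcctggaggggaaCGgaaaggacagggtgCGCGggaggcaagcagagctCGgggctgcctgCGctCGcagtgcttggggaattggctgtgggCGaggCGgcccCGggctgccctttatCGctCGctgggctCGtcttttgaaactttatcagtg
Wnt6: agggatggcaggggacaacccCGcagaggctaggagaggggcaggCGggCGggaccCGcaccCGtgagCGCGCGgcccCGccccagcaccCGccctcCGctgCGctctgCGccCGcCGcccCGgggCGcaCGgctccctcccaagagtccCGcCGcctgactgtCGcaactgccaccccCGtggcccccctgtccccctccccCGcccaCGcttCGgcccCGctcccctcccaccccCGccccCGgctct
Wnt11: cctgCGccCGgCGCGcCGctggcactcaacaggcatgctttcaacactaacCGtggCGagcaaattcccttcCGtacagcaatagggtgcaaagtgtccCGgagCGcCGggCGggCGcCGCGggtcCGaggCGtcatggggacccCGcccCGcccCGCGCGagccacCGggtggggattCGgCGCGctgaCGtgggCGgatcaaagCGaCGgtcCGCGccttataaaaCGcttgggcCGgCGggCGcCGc
Wnt10b: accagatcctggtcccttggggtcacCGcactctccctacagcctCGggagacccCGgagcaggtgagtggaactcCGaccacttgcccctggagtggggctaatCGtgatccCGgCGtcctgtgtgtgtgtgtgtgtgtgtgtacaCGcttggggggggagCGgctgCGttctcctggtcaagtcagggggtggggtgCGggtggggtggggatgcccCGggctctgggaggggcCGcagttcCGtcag

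RefSeq starts were matched for 8 of the 10 members, with Wnt5a and Wnt10a not matched. The Wnt2 stretch held 20 CG, that of Wnt6 28, that of Wnt11 37 and that of Wnt10b 14. Over 32851 mouse promoters of the same length the median was 6 CG, with a 10th to 90th percentile range of 1 to 25. At least as many CG were found in 17.9% of all promoters for Wnt2, 7.61% for Wnt6, 2.20% for Wnt11 and 29.4% for Wnt10b. The first starts of the members not shown held 35 CG at Wnt5b, 36 at Wnt2b, 44 at Wnt4 and 48 at Wnt9a, so that Wnt10b and Wnt2 had the fewest CG of the 8 matched members. The letters TATAAA, searched on both strands, were in the Wnt11 stretch alone among the members (12.4% of all promoters), and CCAAT, searched likewise, in those of Wnt2 and Wnt2b (33.8% of all promoters).

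The embryonic libraries held 30236159 to 39606157 counts on genes and the adult libraries 11404712 to 15903642, so that 3 counts, the limit a count of 0 allows, amount to 0.0765 to 0.101 counts per 1000000 (CPM) and to 0.210 to 0.300 CPM. Eed itself fell from 40.8 to 9.43 CPM in the E13.5 stomach (log2 fold change -2.11, adjusted p = 0.0017) and from 39.1 to 9.66 CPM in the E13.5 intestine (-2.02, adjusted p = 0.0046). Barx1, a homeobox gene of the stomach mesenchyme, was at 592 CPM in control stomach and 1.01 CPM in control intestine, and Nkx2-3, a homeobox gene of the intestinal mesenchyme, at 1.13 and 167 CPM. In the adult libraries Eed was at 31.5 CPM in controls and 25.3 CPM in those labelled Eed KO (-0.32 ± 0.21 SE, adjusted p = 0.317). All 6 mesenchyme markers were detected in every library. Summed leukocyte markers were at 3.48 to 11.9 CPM in the embryo, at 2701 to 3615 CPM in adult controls and at 92571 to 103911 CPM in adult libraries labelled Eed KO. Summed mesenchyme markers were at 12958 to 24438 CPM in the embryo, at 11311 to 11833 CPM in adult controls and at 3434 to 4947 CPM in adult libraries labelled Eed KO. In the embryo, spike-in RNA took 0.0720% to 0.110% of counts in controls and 0.0134% to 0.0403% in Eed KO. In each embryonic test below, a gene was called when edgeR's quasi-likelihood test gave an adjusted p under 0.05 over all 16218 genes tested together with more than a doubling or halving of the level (1 on the log2 scale). All 10 members were tested.

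To compare levels between genes, counts were divided by exon length and scaled to transcripts per 1000000 (TPM). Wnt5a, a noncanonical ligand that drives elongation of the gut tube, led in all 4 embryonic groups. It was at 164 ± 21.6 TPM (SD, n = 2) in control intestine, 150 ± 5.44 TPM in Eed KO intestine, 125 ± 24.4 TPM in control stomach and 102 ± 6.87 TPM in Eed KO stomach. Wnt2b and then Wnt5b followed in each of these groups, and their libraries overlapped in control and in Eed KO intestine. Wnt9a, a ligand known from joint formation, came next in control stomach (18.3 ± 1.44 TPM) and control intestine (10.1 ± 2.27 TPM), but Wnt11 stood above it in Eed KO stomach (30.2 ± 1.12 against 13.2 ± 0.895 TPM). In Eed KO intestine Wnt11 and Wnt9a overlapped. Wnt4 was at 3.92 to 8.27 TPM in the 8 embryonic libraries, and overlapped its next neighbour in each of the 4 groups. Wnt2 and Wnt6 overlapped each other in control stomach and in Eed KO intestine.

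At the lower end were Wnt10a and Wnt10b, which are best known from teeth, hair and the mammary gland. Wnt10a had 0 to 14 counts per embryonic library. Wnt10b had no count in any of the 4 embryonic control libraries, 2 and 5 counts in Eed KO intestine and 15 and 11 counts in Eed KO stomach. In total, 6 members (Wnt2b, Wnt4, Wnt5a, Wnt5b, Wnt9a and Wnt11) averaged at least 1 CPM in all 4 embryonic groups. The members summed to 243 to 250.5 TPM in control intestine and to 271 to 313 TPM in control stomach, of which Wnt5a made up 61.1% to 71.4% and 39.6% to 45.4%. The plot of TPM by gene shows both the lead of Wnt5a and the spread among the low genes.

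**Figure D1:**
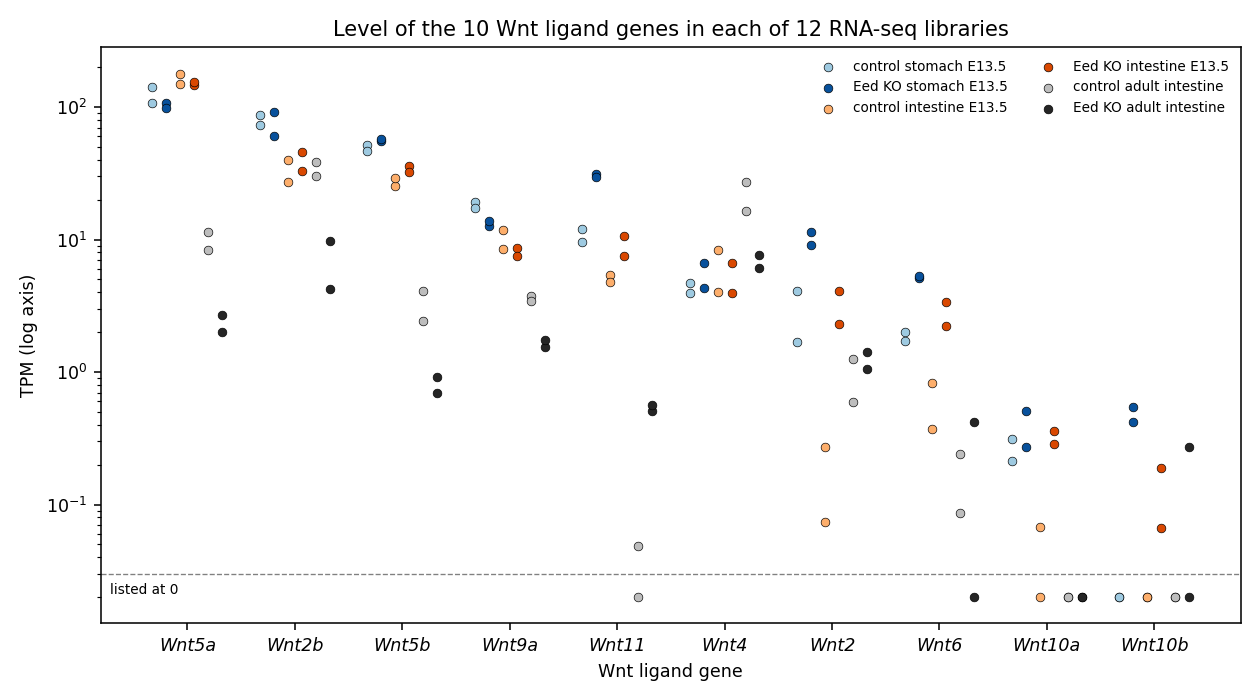
Level of each Wnt ligand gene in TPM (log axis) in each of the 12 RNA-seq libraries, with 1 point per library coloured by group and libraries at 0 drawn under the dashed line. Wnt5a is highest in the 8 embryonic libraries, while Wnt2b and Wnt4 stand above it in the 2 adult control libraries.

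The first comparison asks which ligands differ between the intestinal and the gastric mesenchyme of controls. Wnt2, Wnt2b and Wnt11 were lower in the intestine, 3 of the 10 members, and none was higher; over all genes tested 3.39% were called lower and 1.68% higher. Wnt2, a canonical ligand that with Wnt2b specifies the lung from foregut, was at 0.056 and 0.202 CPM in intestine and at 1.25 and 3.03 CPM in stomach. Its intestinal libraries held 2 and 6 counts against 43 and 119, and the fold change was 17.0 (log2 -4.08 ± 0.68 SE, adjusted p = 0.0122). Wnt2b was at 32.9 and 47.0 CPM in intestine and at 85.7 and 102 CPM in stomach (log2 -1.23 ± 0.25 SE, adjusted p = 0.0259). Wnt11, a ligand of convergent extension and kidney branching, was at 6.68 and 5.75 CPM in intestine and at 14.2 and 11.5 CPM in stomach (log2 -1.04 ± 0.21 SE, adjusted p = 0.0285). All 3 genes had every stomach library above every intestinal library. In sorted bulk cells, fewer expressing cells and less RNA per cell cannot be told apart.

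Wnt5b and Wnt9a also passed the adjusted p, but with smaller differences: Wnt5b was 1.78-fold lower in intestine (adjusted p = 0.0066) and Wnt9a 1.79-fold lower (adjusted p = 0.0289). By the adjusted p alone, in either direction, 6.83% of all genes tested passed. Wnt6, a ligand expressed in epithelia of the kidney, was at 0.618 and 0.269 CPM in intestine and at 1.45 and 1.25 CPM in stomach. Its log2 difference of -1.57 ± 0.39 SE missed the threshold (adjusted p = 0.0615) but passed with DESeq2 (0.0144), no filter (0.0100) or a replicate block (0.0494). Wnt5a, at 474 and 381 CPM in intestine against 276 and 366 CPM in stomach, had the opposite sign (log2 0.41 ± 0.16 SE) and an adjusted p of 0.231. Wnt4, which is known from kidney tubules and the female gonad, was at 5.70 and 11.4 CPM in intestine and at 5.42 and 6.50 CPM in stomach, so that the organs overlapped (adjusted p = 0.622). Wnt10a had 2 counts over both intestinal libraries and 16 over the stomach libraries (ratio of CPM 7.09, 95% counting interval 1.67 to 63.5; adjusted p = 0.146). The organs did not overlap for 8 of the 10 members, as for 51.2% of all genes tested. The median log2 difference of the members was -0.94 beside 0.00 for all genes tested.

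The call for Wnt2 was lost without control intestine replicate 1 (adjusted p = 0.118) and without control stomach replicate 2 (0.0505), and those for Wnt2b and Wnt11 were lost without any 1 of the 4 control libraries (0.0518 to 0.193 and 0.0670 to 0.175). Scaling to the spike-ins also ended the calls for Wnt2b and Wnt11 (adjusted p = 0.985 for each). Summed mesothelial markers were at 322 to 496 CPM in intestine and at 547 to 576 CPM in stomach, and 1 of 5 was called lower in intestine. Called higher in intestine were 3 of 5 endothelial markers (median log2 1.80) and 2 of 6 smooth muscle and pericyte markers (median 0.71). Summed endothelial markers, however, overlapped between the organs, at 14.9 to 19.1 CPM in intestine and at 14.3 to 15.2 CPM in stomach. Of 6 epithelial markers 1 (Epcam) was called lower. The part of these cells in the ligand differences was not tested.

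**Figure D2:**
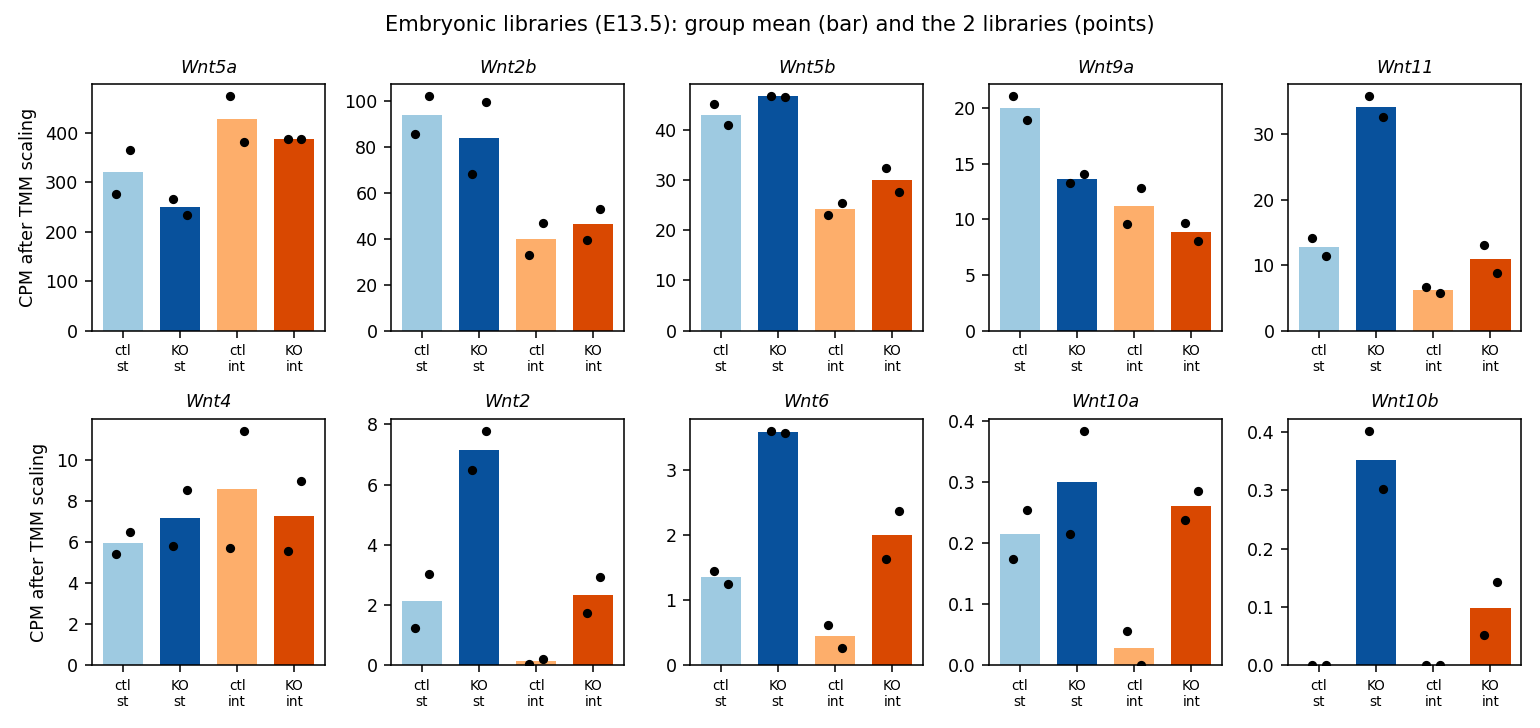
CPM after scaling by the trimmed mean of M-values (TMM) for each Wnt ligand gene in the 4 embryonic groups (ctl, control; KO, Eed KO; st, stomach; int, intestine), with bars for the group mean and points for the 2 libraries; each vertical axis starts at 0 and has its own scale. Wnt2, Wnt6 and Wnt11 are lowest in control intestine and highest in Eed KO stomach, and Wnt10b is at 0 in all 4 control libraries.

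The next comparison asks how the loss of Eed changed ligand levels in the stomach mesenchyme. Wnt11, Wnt6 and Wnt10b rose, 3 of the 10 members, and none fell; of all genes tested 4.84% rose and 0.808% fell. Wnt11 went from 14.2 and 11.5 CPM in controls to 35.8 and 32.7 CPM in Eed KO (log2 1.41 ± 0.21 SE, adjusted p = 0.0085). Wnt6 went from 1.45 and 1.25 CPM to 3.59 and 3.56 CPM (log2 1.41 ± 0.34 SE, adjusted p = 0.0465). For both genes each Eed KO library lay above each control library, and the fold was about the same although Wnt11 was the more abundant. Wnt10b, with no count in either control library, had 15 and 11 counts in Eed KO, at least 8.66-fold higher against a floor of 3 counts over the control group (adjusted p = 0.0312).

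Wnt2 had a larger log2 difference than Wnt11 and Wnt6 but more spread: it was at 1.25 and 3.03 CPM in control stomach and at 6.49 and 7.79 CPM in Eed KO (log2 1.73 ± 0.46 SE, adjusted p = 0.0646). Its Eed KO libraries both lay above the controls, and it passed with DESeq2 (adjusted p = 0.0038), with no filter (0.0031) and with a block for replicate number (0.0062). It was not called with a spike-in factor of RUVg. Wnt9a was at 21.1 and 18.9 CPM in controls and at 13.3 and 14.1 CPM in Eed KO (log2 -0.55 ± 0.17 SE, adjusted p = 0.105). The most abundant ligand, Wnt5a, was at 267 and 233 CPM in Eed KO stomach (log2 -0.36 ± 0.16 SE, adjusted p = 0.241). Wnt2b, Wnt4, Wnt5b and Wnt10a had log2 differences of -0.16, 0.26, 0.12 and 0.46, with adjusted p from 0.599 to 0.735. The KO and control libraries did not overlap for 7 members, as for 55.0% of all genes tested, and the members' median log2 difference was 0.36 beside 0.00 for all genes.

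Only Wnt11 kept its call in most reduced sets: it was lost without control stomach replicate 2 (adjusted p = 0.0729), while Wnt6 and Wnt10b were lost without any 1 of the 4 stomach libraries (0.132 to 0.231 and 0.109 to 0.136), and Wnt6 also with a spike-in factor of RUVg (0.654). With that RUVg factor Wnt10b was not called either, and 270 of the 916 calls over all genes were kept. Scaled to the spike-ins, 15419 genes rose and 19 fell with a median log2 difference of 2.39, all 10 members were called higher, and the log2 differences of Wnt2b, Wnt5a and Wnt9a became positive, though below that median. Summed endothelial markers were at 14.3 to 15.2 CPM in control and at 23.7 to 43.8 CPM in Eed KO stomach, and mesothelial markers at 547 to 576 and at 350 to 465 CPM; their part in these differences was not tested.

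In the E13.5 intestine, Wnt2 and Wnt6 rose with loss of Eed, 2 of the 10 members, and none fell; of all genes tested 2.38% rose and 0.228% fell. Wnt2 went from 0.056 and 0.202 CPM to 1.74 and 2.94 CPM, an 18.4-fold difference (log2 4.20 ± 0.68 SE, adjusted p = 0.0222). The Eed KO intestine thus held 66 and 103 Wnt2 counts, and their CPM lay between those of the control stomach libraries (1.25 and 3.03 CPM). Wnt6 went from 0.618 and 0.269 CPM to 1.64 and 2.37 CPM, a 4.39-fold difference (log2 2.14 ± 0.39 SE, adjusted p = 0.0328). For Wnt6, too, both KO libraries stood above both controls.

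Wnt11 was at 13.1 and 8.78 CPM in Eed KO intestine against 6.68 and 5.75 CPM in controls (log2 0.82 ± 0.21 SE), and missed the threshold (adjusted p = 0.104). Wnt10a had 19 counts over the KO libraries and 2 over the controls (ratio of CPM 8.50, 95% counting interval 2.05 to 75.3; adjusted p = 0.139). Wnt10b had 7 counts in Eed KO and 0 in controls, at least 2.09-fold higher against 3 counts over the control group (adjusted p = 0.238). These 2 genes lay so close to the floor that the depth limits any statement on them. Wnt5a was at 388 and 388 CPM beside 474 and 381 CPM in controls (log2 -0.14 ± 0.16 SE, adjusted p = 0.849), and Wnt5b, Wnt9a, Wnt2b and Wnt4 had log2 differences of 0.31, -0.34, 0.21 and -0.23 with adjusted p from 0.279 to 0.906. The KO and control libraries did not overlap for 6 members, as for 38.3% of all genes tested, and the members' median was 0.56 beside 0.01.

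The Wnt2 call was lost without control intestine replicate 1 (adjusted p = 0.183), control intestine replicate 2 (0.0919) or Eed KO intestine replicate 2 (0.0658), and the Wnt6 call without the same 3 libraries in turn (0.0686, 0.136 and 0.115) and with a spike-in factor of RUVg (0.151). With that RUVg factor 225 of the 423 calls over all genes were kept. Scaled to the spike-ins, 13664 genes rose and 24 fell with a median log2 difference of 1.85, 9 members (all but Wnt9a) were called higher, and Wnt4, Wnt5a and Wnt9a turned positive. Summed endothelial markers were at 14.9 to 19.1 CPM in control and at 43.3 to 44.2 CPM in Eed KO intestine, and their part in these differences was not tested.

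**Figure D3:**
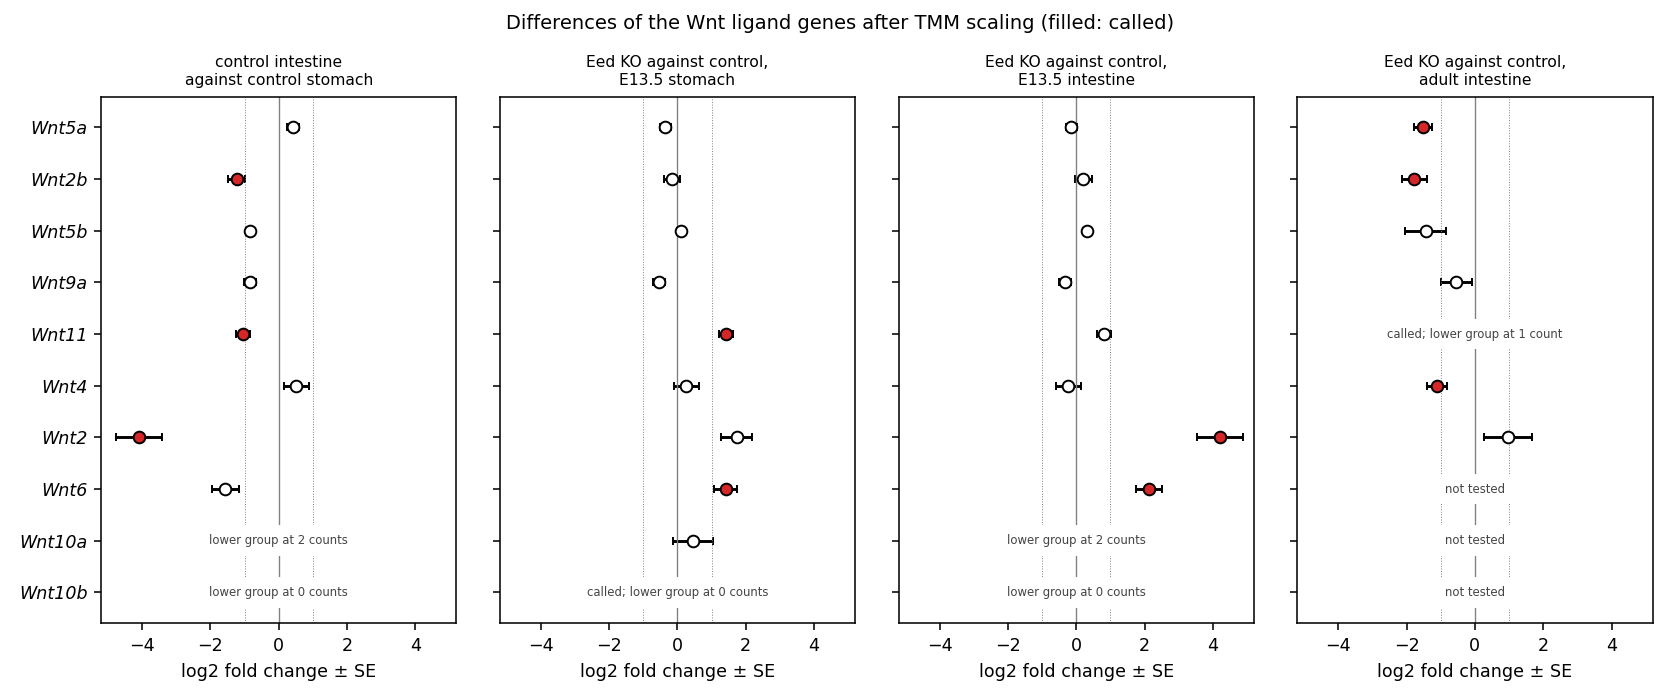
Log2 fold change (horizontal axis, with SE bars) of each Wnt ligand gene in 4 comparisons after TMM scaling; filled points passed both thresholds, open points did not, dotted lines mark a log2 fold change of 1 in size, and genes with 3 counts or fewer in the lower group are named in words. Wnt6 is filled in both embryonic KO panels, Wnt2 in the intestine and Wnt11 in the stomach, whereas Wnt5a, Wnt2b and Wnt4 are filled to the left in the adult.

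Without Eed, the organs still differed in Wnt11. It was at 13.1 and 8.78 CPM in Eed KO intestine and at 35.8 and 32.7 CPM in Eed KO stomach (log2 -1.64 ± 0.21 SE, adjusted p = 0.0056), 1 of the 10 members where 2.94% of all genes were called lower and 1.46% higher. This call held without any 1 of the 4 KO libraries, but scaling to the spike-ins gave an adjusted p of 0.513. Wnt5b was also lower in Eed KO intestine but by less than the fold required (log2 -0.64 ± 0.12 SE, adjusted p = 0.0211; 6.33% of all genes tested passed the adjusted p alone). Wnt2 and Wnt2b, called between control organs, had log2 differences of -1.61 ± 0.46 (SE) and -0.86 ± 0.25 between KO organs and did not pass (adjusted p = 0.0893 and 0.0921), though Wnt2 did with DESeq2 (0.0094), no filter (0.0058) or a replicate block (0.0092).

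Whether the organ difference itself changed with Eed was tested as the control organ difference minus the KO organ difference, at the study's looser adjusted p of 0.2. With edgeR 0 of the 10 members passed, beside 0.462% of all genes in either direction. Wnt2 alone had an unadjusted p under 0.05 (log2 -2.47 ± 0.85 SE, unadjusted p = 0.0213, adjusted p = 0.669), and it was called with DESeq2 (adjusted p = 0.179), with no filter (0.134) and with a replicate block (0.1995). Wnt11 and Wnt6 had log2 values of 0.60 ± 0.30 (SE) and -0.73 ± 0.51 in this test. For Wnt2 a difference of the Eed effect between the organs therefore depends on these settings, and for Wnt11, called in stomach alone, none was shown. The KO comparisons and the organ comparisons share libraries, and their values are given side by side only.

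The other genes of the pathway were read from lists of ligands, secretion factors, receptors, antagonists, R-spondins and targets. Of the other 9 Wnt ligands 3 had enough counts to be tested in the embryo (Wnt3, Wnt7b and Wnt16), and Wnt3 was lower in intestine than stomach in Eed KO (log2 -2.56, adjusted p = 0.0267) and in controls, where it had 1 count against 27 (adjusted p = 0.0255). Of the 4 secretion factors tested none passed in any embryonic comparison. Wls, on which ligand release depends, was at 265 and 262 CPM in control intestine and control stomach and at 243 and 263 CPM in the Eed KO organs (group means). With Eed loss its adjusted p came to 0.989 (stomach) and 0.623 (intestine).

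Among the 16 receptors and coreceptors, Fzd5 was lower in control intestine than in control stomach (14.8 against 59.9 CPM, log2 -2.01, adjusted p = 0.0082) and Fzd10 rose in Eed KO stomach (2.17 to 4.88 CPM, log2 1.17, adjusted p = 0.0382). The other 15 did not pass in either comparison, and none of the 16 passed in Eed KO intestine. Of 9 antagonists tested, Frzb (log2 1.64, adjusted p = 0.0028) and Sfrp2 (log2 1.39, adjusted p = 0.0142), decoy proteins that bind Wnt ligands, rose in Eed KO stomach and none passed in Eed KO intestine. Between control organs Dkk2, which binds Lrp6, was higher in intestine (log2 1.43, adjusted p = 0.0011), while Sfrp2 (log2 -1.13, adjusted p = 0.0293) and Sfrp4, with no count in control intestine (adjusted p = 0.0192), were lower.

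R-spondins amplify Wnt signals by sparing Frizzled receptors from degradation. Of the 9 R-spondins and their receptors, Rspo4 rose in Eed KO stomach (0.0927 to 1.49 CPM, log2 3.93, adjusted p = 0.0024) and in Eed KO intestine (0.0617 to 0.519 CPM, log2 3.01, adjusted p = 0.0255), and Rspo1 fell in Eed KO stomach (log2 -1.07, adjusted p = 0.0177). Rspo2 was lower in control intestine than in control stomach (log2 -1.44, adjusted p = 0.0336). Of 9 target genes of the canonical branch, 2 were lower in control intestine than in control stomach: Sp5, with no count against 27 (adjusted p = 0.0248), and Lef1, at 0.351 against 3.46 CPM (log2 -3.33, adjusted p = 0.0032). Lef1 rose in Eed KO intestine to 2.32 CPM (log2 2.76, adjusted p = 0.0165). Ccnd1, a cyclin with many other inputs, rose in both KO organs (log2 1.01 and 1.69, adjusted p = 0.0369 and 0.0118). Between the KO organs Sfrp4, Sfrp2, Rspo4, Sp5 and Lef1 were lower in intestine (log2 -3.29, -1.59, -1.51, -3.38 and -1.75, with adjusted p from 0.0097 to 0.0401). Axin2, the target most often used to read canonical signalling, did not pass in either (log2 0.06 and 0.25, adjusted p = 0.900 and 0.746).

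In the adult intestine the question is whether Eed loss changes the ligands of the crypt stroma. The levels had another order from those of the embryo. In adult controls Wnt2b led (34.2 ± 5.49 TPM, SD, n = 2), followed by Wnt4 (21.7 ± 7.45 TPM) and Wnt5a (9.83 ± 2.18 TPM), and these 3 did not overlap. The members summed to 75.6 and 72.0 TPM, and Wnt5a made up 11.5% to 15.0% of this. In the libraries labelled Eed KO they summed to 24.2 and 17.2 TPM, with Wnt2b (6.96 ± 3.90 TPM) and Wnt4 (6.85 ± 1.10 TPM) overlapping in front. Wnt10a had no count in the 4 adult libraries, Wnt6 had 1 and 3 counts in controls and 5 and 0 in the libraries labelled Eed KO, and Wnt10b had 5 counts in 1 library labelled Eed KO and none in the others, so that these 3 members were not tested.

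With TMM scaling, Wnt2b, Wnt5a and Wnt4 were lower in the libraries labelled Eed KO and Wnt11 was higher, 4 of the 7 members with enough counts to be tested; of all 15039 genes tested 7.23% were called lower and 12.3% higher. Wnt2b was at 41.6 and 53.8 CPM in controls and at 18.9 and 9.11 CPM in the libraries labelled Eed KO (log2 -1.77 ± 0.36 SE, adjusted p = 0.0136). Wnt5a was at 34.1 and 25.6 CPM and at 11.4 and 9.49 CPM (log2 -1.51 ± 0.27 SE, adjusted p = 0.0079), and Wnt4 at 43.5 and 27.3 CPM and at 17.4 and 15.4 CPM (log2 -1.11 ± 0.28 SE, adjusted p = 0.0311). For these 3 genes every control lay above every library labelled Eed KO. Wnt11 had 0 and 1 count in controls and 10 and 16 counts in the libraries labelled Eed KO (ratio of CPM 31.7, 95% counting interval 5.21 to 1300; adjusted p = 0.0237). Wnt5b, Wnt2 and Wnt9a had log2 differences of -1.44 ± 0.60 (SE), 0.98 ± 0.70 and -0.54 ± 0.45 and did not pass (adjusted p = 0.133, 0.355 and 0.425). The groups did not overlap for any of the 7 members, as for 65.3% of all genes tested, and the members' median log2 difference was -1.11 beside 0.00.

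The mesenchyme markers moved with these genes. Of the 6 mesenchyme markers 4 were called lower and none higher, with a median log2 difference of -1.46, and all 6 leukocyte markers were called higher, with Cd74 at 2124 to 2840 CPM in controls and 77598 to 90590 CPM in the libraries labelled Eed KO. Smooth muscle and pericyte markers were mixed: of 6, 2 were called higher and 1 lower, with a median log2 difference of 0.68. Their sum was 13116 to 14704 CPM in controls and 6102 to 6923 CPM in the libraries labelled Eed KO. Per 100000 counts on the 6 mesenchyme markers, Wnt5a stood at 302 and 216 in controls and at 231 and 276 in the libraries labelled Eed KO, so that the groups overlapped. Wnt2b stood at 368 and 454 against 383 and 265, and Wnt4 at 384 and 230.5 against 352 and 449, again overlapping. Wnt2, in contrast, stood at 4.52 and 9.46 in controls against 26.3 and 56.2, with no overlap. Nor did the groups overlap for Wnt9a, at 42.0 and 38.4 against 56.7 and 103, or Wnt11, at 0 and 0.591 against 20.2 and 36.0. How many of all genes did the same on this measure was not counted.

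Refitted with library sizes set by these markers, an alternative chosen after the data were seen, Wnt2b, Wnt5a and Wnt4 had log2 differences of -0.34, -0.03 and 0.38 and none passed (adjusted p = 0.434, 0.951 and 0.400). Wnt2 was then called higher (log2 2.53 ± 0.81 SE, adjusted p = 0.0137), and Wnt11 remained called (adjusted p = 0.000718). Of all 15039 genes tested, this refit called 9701 higher and 133 lower, with a median log2 difference of 1.51. The direction for Wnt4 therefore depends on the scaling, and those for Wnt5b and Wnt9a also turned positive (log2 0.11 and 0.99, adjusted p = 0.896 and 0.151). Apart from Wnt2 and Wnt11, the members tested lay below that median. Wnt4 was not called without adult control replicate 1 (adjusted p = 0.187) or adult Eed KO replicate 2 (0.0902), and Wnt11 not without adult control replicate 1 (0.186), adult control replicate 2 (0.0892) or adult Eed KO replicate 1 (0.101), nor with DESeq2 (0.0704), and was not tested without adult Eed KO replicate 2.

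**Figure D4:**
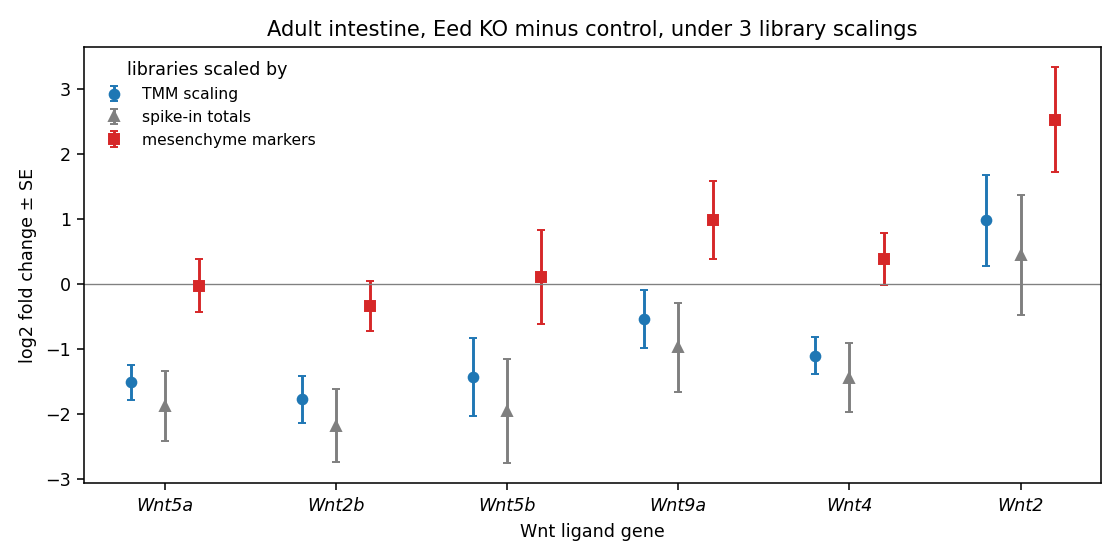
Log2 fold change (vertical axis, with SE bars) between adult libraries labelled Eed KO and adult controls for 6 Wnt ligand genes with libraries scaled by TMM (circles), by spike-in totals (triangles) or by the 6 mesenchyme markers (squares); Wnt11 is left out since its controls hold 1 count. Wnt5a and Wnt2b lie well below 0 with the first 2 scalings and near 0 with the third (-0.03 and -0.34), and Wnt2 rises to 2.53. With the third scaling the median over all genes tested was 1.51.

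Several other genes of the pathway were lower in the adult libraries labelled Eed KO with TMM scaling, where 7.23% of all genes tested were called lower and 12.3% higher. Of 13 receptors tested 7 were lower and none higher, led by Fzd2 (log2 -2.25, adjusted p = 0.0058), Ptk7 (-1.99, adjusted p = 0.0015) and Fzd1 (-1.71, adjusted p = 0.0018). Of 6 antagonists 5 were lower, among them Frzb (log2 -2.77, adjusted p = 0.0245), Wif1 (-2.74, adjusted p = 0.0097) and Dkk2 (-1.81, adjusted p = 0.0138). Of 7 R-spondins and their receptors Rspo2 (log2 -1.51, adjusted p = 0.0145) and Rspo3 (-1.07, adjusted p = 0.0232) were lower, and of 7 targets Apcdd1 was lower (-2.36, adjusted p = 0.0030) and Myc, which many signals control, was higher (1.83, adjusted p = 0.0042). None of the 3 secretion factors tested passed. These values carry the same fall of the mesenchyme markers beside them, and its part in them was not tested.

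The Eed KO effect in adult and embryonic intestine was compared in 1 fit over all 12 libraries. Of the 9 members tested 4 (Wnt2, Wnt2b, Wnt5a and Wnt5b) had a more negative effect in the adult and 1 (Wnt11) a more positive one; over the 19388 genes tested 6.82% and 6.91% were called in these directions. Side by side, the log2 effect in embryonic and adult intestine was 0.21 and -1.77 for Wnt2b, -0.14 and -1.51 for Wnt5a, 0.31 and -1.44 for Wnt5b and 4.20 and 0.98 for Wnt2. Scaled to the mesenchyme markers, Wnt11 was the 1 member still called. Of all genes tested, 6477 were then called more positive in the adult and 118 more negative, with a median of 1.43. With TMM scaling, the effect was also more negative in the adult for 7 of 16 receptors (led by Fzd2, Ptk7 and Ror2, log2 -2.30, -1.98 and -1.63), 4 of 9 antagonists (Wif1, Frzb and Dkk2, -3.81, -3.40 and -1.74), Lgr4 (-1.28), Apcdd1 (-2.94) and Ccnd1 (-2.35), and more positive for Rspo1 (1.52) and Myc (1.85), with adjusted p from 0.000307 to 0.0454 for those named. Eed itself was also called more positive in the adult in this test, so its own fall was not the same in both sets. The Cre driver, age, library kit, cells and fall of Eed differed together between the embryonic and adult sets, and cannot be told apart.

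Accessible chromatin was read from 4 ATAC-seq peak lists at E13.5, each called by the authors on pooled replicates, so that no test between conditions was possible. A peak within 1000 bp of the GENCODE start was present in all 4 lists for 9 of the 10 members, as for 86.9% of the 16216 genes tested. Wnt10a had none in any list, although each list had 4 peaks in its gene body and a window of 5000 bp took in a peak in each. Promoter peaks were also present at members with few counts. The Wnt2 promoter had a peak of 2037 bp with a fold enrichment of 5.81 in control intestine, where the 2 RNA libraries held 2 and 6 counts of Wnt2. Wnt10b, with no count in controls, had peaks with a fold enrichment of 4.17 in control stomach and 4.45 in control intestine. The peak in control intestine ended 70 bp short of the start, while all other member peaks covered theirs.

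Peak heights at the members were below those of most promoters. The median fold enrichment of the 9 members was 4.60 in control stomach, 3.91 in Eed KO stomach, 4.45 in control intestine and 3.60 in Eed KO intestine, beside 6.80, 6.69, 6.91 and 6.46 for all genes with a promoter peak. Wnt5a, the most abundant transcript, had low but wide peaks (fold enrichment 2.51 to 2.81, width 3409 to 3667 bp). With Eed loss, fold enrichment at the Wnt2 promoter went from 4.70 to 4.18 in stomach and from 5.81 to 4.61 in intestine. At Wnt6 it went from 5.54 to 3.91 in stomach (log2 ratio -0.50, percentile 0.724 of genes with a peak in both lists) and from 5.86 to 4.66 in intestine (log2 ratio -0.33, percentile 7.72). The Wnt6 peak in stomach was 1968 bp wide in control and 3283 bp in Eed KO, so its ratio there sets unlike intervals against each other. At both genes the Eed KO peak was the lower one in either organ, as at the other members with a peak except Wnt11 in stomach. The median log2 ratio over all genes with a peak in both lists was -0.01 in stomach and -0.07 in intestine. Wnt2 stood at percentile 14.8 in stomach and 7.60 in intestine, where Wnt4 (1.14) and Wnt10b (3.99) stood lower still.

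At Wnt11 the stomach lists differed in shape. In control stomach a peak of 492 bp with a fold enrichment of 2.71 covered the GENCODE start, and a separate peak with a fold enrichment of 4.25 covered the second RefSeq start, 3733 bp downstream. In Eed KO stomach a single peak, chr7:98834816-98839347, of 4532 bp and with a fold enrichment of 3.45, spanned both starts. The log2 ratio at the GENCODE start was 0.35 (percentile 97.4), the only positive value among the members in either organ. This ratio sets the merged Eed KO peak against the short control peak, so it does not measure the start alone. At the second start the same merged peak was lower than the control peak (3.45 against 4.25). In the intestine the peak at the start was 455 bp wide in control and 442 bp wide in Eed KO, with fold enrichments of 2.67 and 2.31. The peak at the Wnt9a start was also wider in Eed KO, at 1529 bp in control and 4572 bp in Eed KO stomach and at 3706 and 4548 bp in the intestine, with fold enrichments of 3.31 to 3.70 in the 4 lists. Wnt5b, which has 3 RefSeq starts, had a peak at the second of these in both Eed KO lists (fold enrichment 2.84 and 3.10) and in neither control list. These peaks were weak, with −log10 q of 2.21 and 3.11, where all other peaks at RefSeq starts of members had at least 5.65. The Eed KO lists held 116842 (stomach) and 119181 (intestine) peaks, and the control lists 115789 and 103808. How many genes gained such a peak was not counted. Since each list comes from pooled replicates, no spread stands behind these values.

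**Figure D5:**
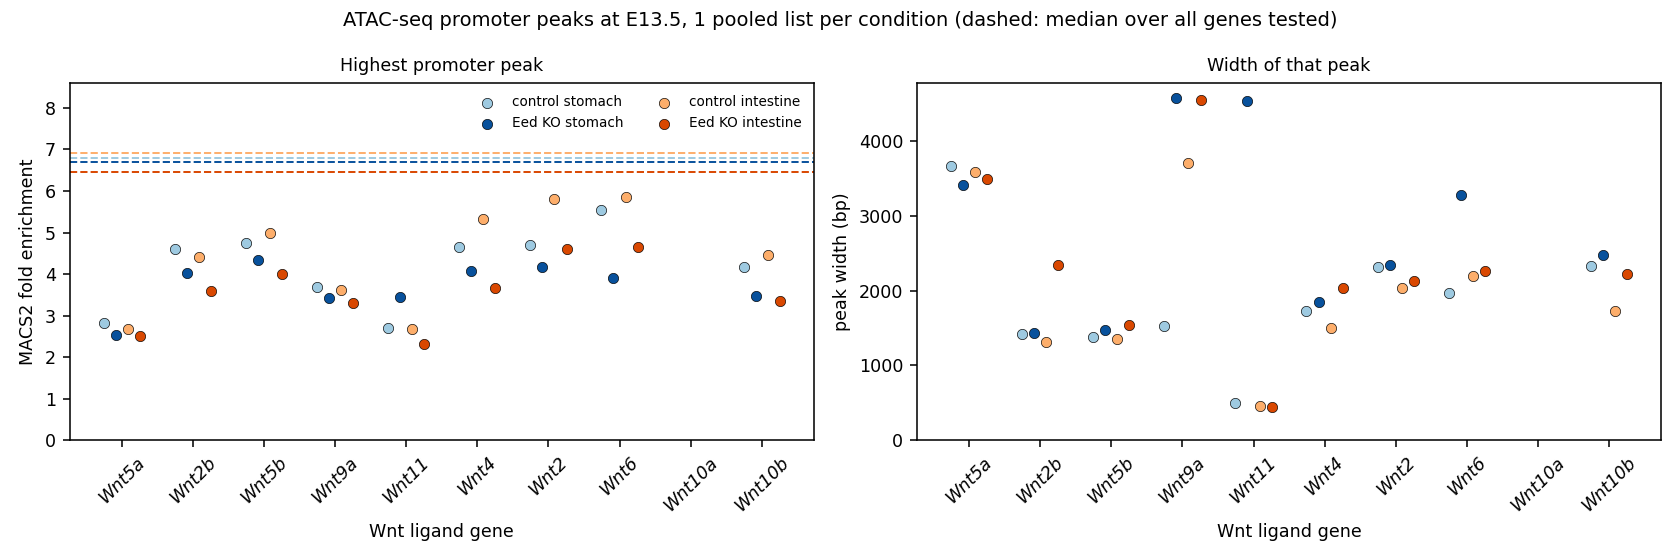
MACS2 fold enrichment (left) and width in bp (right) of the highest peak within 1000 bp of the start of each Wnt ligand gene in 4 pooled ATAC-seq lists at E13.5, with dashed lines on the left for the median over all genes tested that have a peak. All 9 members with a peak lie below the dashed lines, Wnt10a has no point, and the Wnt11 peak in Eed KO stomach is 4532 bp wide beside 442 to 492 bp in the other lists.

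Some genes followed the changing members closely across the 8 embryonic libraries. By Pearson's r of log2(CPM + 0.5) over these libraries, the genes most like Wnt2 were Syt13 (r = 0.996), C1s1 (0.989) and Fam107a (0.989). Those most like Wnt6 were Syngr1 (0.991), Chrna4 (0.985) and Rap1gap2 (0.984), those most like Wnt11 were Ptgfr (0.988), Rapgefl1 (0.987) and Efcab1 (0.984), and those most like Wnt10b were Trip4 (0.989), Ddn (0.988) and S1pr5 (0.985). Among the members themselves Wnt2 and Wnt6 were most alike (r = 0.931), and Wnt5a and Wnt5b least (r = -0.888). These values describe 8 libraries of 4 groups, which share their organ and genotype, and carry no test.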

How the data were processed

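RNA-seq counts per gene were deposited by the authors, 1 table per library. Per the study's methods and the submitters' processing notes, reads were trimmed (Trimmomatic 0.32), aligned with STAR 2.5.1b to GRCm38 with spike-in sequences and counted on GENCODE vM4 with featureCounts, version 1.5.0 for the embryonic data. Embryonic libraries were stranded; adult libraries came from an unstranded low-input kit. The deposited ATAC-seq peak lists give a fold enrichment and a −log10 q-value per peak, called by the authors with MACS2 2.1.2 on pooled replicates, 1 list for each of the 4 conditions.

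The 99 spike-in sequences were kept out of library sizes. Counts were tested with edgeR 4.0.16 (R 4.3.3): quasi-likelihood F-tests after TMM scaling and filterByExpr, all 8 embryonic libraries in 1 fit, the 4 adult libraries in another and all 12 together in a further fit, with Benjamini-Hochberg adjustment over all genes tested. SE is the log2 fold change divided by the square root of F. The biological coefficient of variation was 15.8% in the embryo and 29.1% in the adult. With 2 against 2 libraries an exact permutation test cannot go below a two-sided p of 0.333, so none was used. Count ratios carry exact 95% intervals for counting error only. A promoter was 1000 bp on either side of the GENCODE start, and 1 bp of overlap counted. The 250-base sequences are from RefSeq. Scripts were tested on simulated counts.

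The members and the gene lists were chosen with earlier results of these data known. Other pathway genes are named by a rule, at most 3 per list and comparison among those called, ordered by size of change, with Wls and Axin2 chosen after their values were seen, and the 3 genes most alike by r. The study describes its sequencing replicates as biological.

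Alternatives were another scaling (RLE, spike-in totals, an RUVg factor), DESeq2 1.42.0, no filter, a block for replicate number, each library left out, and other peak rules. Scaling to mesenchyme markers and the use of RefSeq starts were added after seeing the data.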

Additional observations from a re-analysis of the deposited data

Results flagged for a closer look

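The Eed KO effect differed between the adult and the embryonic intestine for 5 members in the joint edgeR quasi-likelihood test, given here as adult minus embryonic log2 effect with SE. It was -3.20 ± 0.96 for Wnt2 (adjusted p = 0.0460), -2.002 ± 0.46 for Wnt2b (0.0156), -1.39 ± 0.28 for Wnt5a (0.0079), -1.75 ± 0.38 for Wnt5b (0.0115) and 4.02 ± 0.86 for Wnt11 (0.0106). Over the 19388 genes tested, 6.82% were called more negative in the adult and 6.91% more positive, Eed itself among the latter. The value for Wnt11 rests on 1 count in the adult controls and depends on the prior count of the fit. The call for Wnt2b was lost without control intestine replicate 1 (0.0741) or Eed KO intestine replicate 2 (0.0536). That for Wnt2 was lost without either library of control or Eed KO intestine, adult control replicate 2 or either adult library labelled Eed KO (0.0507 to 0.183). With library sizes set by the mesenchyme markers, the values were -1.59, -0.53, 0.13, -0.24 and 5.52 in the same order, and Wnt11 alone was called (0.0021). The median over all genes tested was then 1.43.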

How the results depend on the processing

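Of 826 values under all settings, 66 are those reported. Of the others 639 kept direction and side of the threshold, 54 lost the threshold, 31 gained it, 29 moved and 7 reversed. Control intestine against control stomach called 3 members, and 1 with spike-in scaling (Wnt2). Eed KO stomach called 3, 10 with spike-in scaling and 1 with RUVg (Wnt11). Eed KO intestine called 2, and 9 with spike-in scaling. Eed KO intestine against Eed KO stomach called 1, and 2 with DESeq2, RUVg, no filter or a replicate block (Wnt2 added), and 0 with spike-in scaling. The organ interaction called 0, and 1 (Wnt2) with DESeq2, RUVg, no filter or a block. The adult called 4, 3 with DESeq2 or RUVg (Wnt11 lost) and 2 with mesenchyme scaling, and the adult against embryonic effect 5, and 1 with mesenchyme scaling. Leaving out 1 library gave 0 to 2, 0 to 1, 0 to 2, 1 to 1, 0 to 0, 2 to 3 and 3 to 5 calls in that order of comparisons.

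Spike-in scaling reversed Wnt2b (2.33), Wnt5a (1.98) and Wnt9a (1.87) in Eed KO stomach, below the median of 2.39 over all genes, and Wnt4 (1.80) and Wnt5a (1.70) in Eed KO intestine, below the median of 1.85. The cause was not tested. Mesenchyme scaling reversed Wnt4 in the adult (0.38) and Wnt5a in the adult against embryonic effect (0.13), below the medians of 1.51 and 1.43 over all genes.

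Libraries with the same replicate number correlated in their deviations from the group mean by 0.104 to 0.714 in the embryo (6 pairs of groups of 2) and by -0.073 in the adult. The labels do not say what a number marks, so the numbers were not used as pairs. A block for replicate number added calls for Wnt6 between control organs (adjusted p = 0.0494), for Wnt2 in Eed KO stomach (0.0062), for Wnt2 between KO organs (0.0092) and for Wnt2 in the organ interaction (0.1995); a block for each genotype and number, taken as a shared embryo pool, made the same calls between organs (Wnt2 0.0537 in the interaction), and no call was lost. Wnt2 in Eed KO stomach also passed with DESeq2 (0.0038) and with no filter (0.0031), but was not called with RUVg. The count of members with a promoter peak was 9, and 10 with a window of 5000 bp. Depth limits Wnt10a and Wnt10b, whose libraries held at most 15 counts.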
